A study of Mus musculus with 4 samples.

Results

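The inhibitory checkpoint receptors described here are 8 genes, Pdcd1, Ctla4, Btla, Lag3, Havcr2, Tigit, Cd160 and Entpd1, out of 32285 genes listed in each of 4 single-cell RNA matrices. They were taken by gene symbol, and all 8 were found in every matrix. The cells came from tumours grown in mice from the colon carcinoma cells MC38b. The combination library is from mice given an antibody against PD-1 and an antibody against TL1A, a cytokine of the TNF family. The anti-PD-1 library is from mice given the PD-1 antibody alone, and the libraries PBS 1 and PBS 2 are from mice given saline. Tumours were harvested 24 h after the second of 2 doses in each group. The strain, sex and age of the mice are not given in the sources used here. The labels state 4 treated and 2 saline animals, pooled before sorting, without saying which animals each library holds. Cells sorted by CD45 and CD3 (both positive, CD45 alone, neither) were remixed at 9 to 9 to 2 parts before loading, so the makeup of a library is partly set by the sort.

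Inhibitory receptors are switched on in T and NK cells after activation and dampen signalling from the antigen receptor and from costimulatory receptors. In tumours, CD8 T cells that meet antigen for long periods carry several of them at once, a state called exhaustion, and regulatory T cells carry a set of their own. PD-1, encoded by Pdcd1, is the target of the antibody given to both treated groups, and it recruits the phosphatase SHP-2 when bound by PD-L1 or PD-L2. CTLA-4 competes with CD28 for CD80 and CD86, and BTLA binds HVEM, a receptor that CD160 also binds. LAG-3 is a relative of CD4 that binds MHC class II. TIM-3, encoded by Havcr2, binds galectin-9 among other ligands, and TIGIT binds the poliovirus receptor. CD39, encoded by Entpd1, is an enzyme of the cell surface that breaks down extracellular ATP on the way to adenosine.

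On GRCm38 (GENCODE M21) the genes lie on 6 chromosomes. Pdcd1 spans chr1:94038305-94052553 on the minus strand and Ctla4 chr1:60887000-60915832 on the plus strand. Lag3 spans chr6:124904361-124911705 (minus), Havcr2 chr11:46454935-46481255 (plus) and Entpd1 chr19:40612366-40741602 (plus). Tigit, at chr16:43648867-43664146 (minus), and Btla, at chr16:45224315-45257670 (plus), share chromosome 16. Cd160, at chr3:96798763-96829351 (minus), overlaps Pdzk1 on the opposite strand, a gene with 1 to 56 UMIs (unique molecular identifiers, here molecules of RNA counted) per cell class and library. Tigit counts are uncertain, because 67 of the 465 stretches of 31 bases at its 3′ end also occur in other genes. Entpd1 shares 28 of 3298 such stretches, and the other members share none.

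Of the 8 members, 7 matched promoters from RefSeq (GRCm38.p6), with 9 promoters among them. The promoters of Ctla4 and Pdcd1 are shown because Ctla4 was higher in the combination library than in PBS in some cell classes and Pdcd1 encodes the antibody's target. Each runs from 250 bases before the start of transcription to 50 bases after it, at chr1:60908775-60909074 (plus) for Ctla4 and chr1:94052504-94052803 (minus) for Pdcd1. Capitals mark matches to the core that NFAT factors bind, GGAAA, on either strand.
Ctla4: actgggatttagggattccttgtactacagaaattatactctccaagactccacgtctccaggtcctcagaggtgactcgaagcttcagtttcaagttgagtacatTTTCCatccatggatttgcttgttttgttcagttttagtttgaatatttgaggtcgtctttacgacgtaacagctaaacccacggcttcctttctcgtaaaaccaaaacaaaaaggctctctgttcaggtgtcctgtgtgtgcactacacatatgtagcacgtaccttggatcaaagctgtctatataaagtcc
Pdcd1: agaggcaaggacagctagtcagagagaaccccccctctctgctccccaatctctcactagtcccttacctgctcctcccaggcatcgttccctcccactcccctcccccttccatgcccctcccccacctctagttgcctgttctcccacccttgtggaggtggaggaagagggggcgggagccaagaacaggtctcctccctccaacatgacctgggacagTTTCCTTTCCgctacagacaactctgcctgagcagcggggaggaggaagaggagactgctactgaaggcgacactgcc
Ctla4 held 1 match and Pdcd1 held 2, next to each other. The same letters occurred in 61.3% of all 32851 promoters of this length, so a match is common, and it describes the letters only. An AP-1 motif, TGANTCA, found in 7.81% of all promoters, occurred among the members in Havcr2 alone.

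The matrices held 11177 barcodes in the combination library, 13231 in the anti-PD-1 library, 6732 in PBS 1 and 6448 in PBS 2. Median UMIs per barcode were 7098, 3588, 7798 and 7645.5 in the same order, so the cells of the anti-PD-1 library were the shallowest. Libraries shared barcodes: PBS 1 and PBS 2 shared 673, the anti-PD-1 library shared 1255 with PBS 1 and 1778 with PBS 2, and the combination library shared 21 to 39 with each of the others. A shared barcode was kept in the library where it had at least 8 times the UMIs of the other copy and left out elsewhere, which removed 64, 2295, 325 and 896 barcodes from the combination, anti-PD-1, PBS 1 and PBS 2 libraries. The analysed cells numbered 9873, 9520, 5919 and 5111.

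Clusters were formed without the 8 members and named from marker genes, and names in the text stand for "like": CD8 T cells (Cd8a), conventional CD4 T cells (Cd4, called CD4 cells), regulatory T cells (Foxp3, called Treg cells) and NK cells (Ncr1, little Cd3e). CD8 T cells comprised a naive-like cluster with Lef1 and Ccr7, and the rest, called non-naive CD8 cells. T cells with Klra genes and little Cd8a or Cd4 were kept as Klra T cells without a class name. Non-naive CD8 cells numbered 2227 in the combination library, 1708 in the anti-PD-1 library, 923 in PBS 1 and 914 in PBS 2. Treg cells numbered 640, 730, 452 and 445, CD4 cells 641, 579, 439 and 433, and NK cells 1899, 1618, 1004 and 855, in the same order. Clusters with markers of 2 lineages, with 597, 294, 224 and 221 cells, and clusters of low UMI counts, with 408, 1434, 176 and 167 cells, were left out of the classes. Levels are in CPM, a gene's UMIs per 1000000 UMIs of the class in a library. A lower sum in a class can come from fewer cells that carry the transcript or from less of it per cell, and the sums cannot tell these apart.

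The first question was which T and NK cells carry each receptor transcript. Pdcd1 was highest in non-naive CD8 cells, and Cd160 in Klra T cells and non-naive CD8 cells. Btla was highest in CD4 cells, and Tigit, Ctla4 and Entpd1 in Treg cells. Lag3 and Havcr2 were about as high in Treg cells as in non-naive CD8 cells. NK cells carried every member but Btla at levels within the range of the T cell classes. Their Havcr2 stood near the low end of that range, and they carried almost no Btla. Levels below are means ± SD over the 4 libraries (n = 4), which differ in treatment, and the plot of levels by class shows each library.

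**Figure D1:**
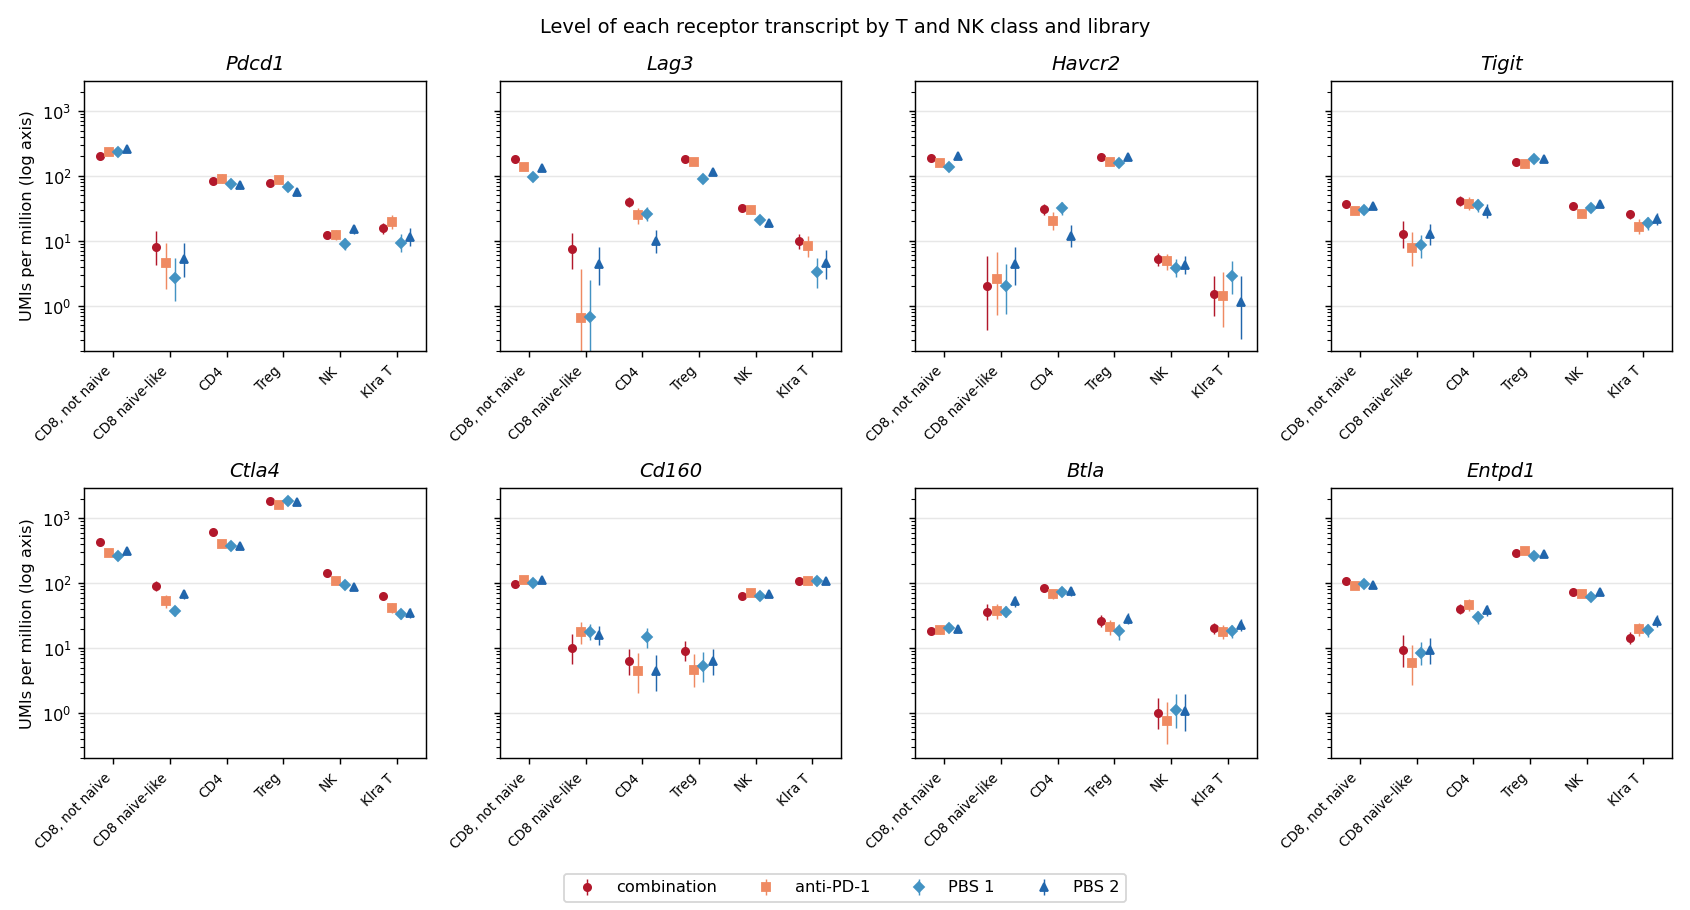
Level of each of the 8 receptor transcripts (CPM, log axis) in 6 T and NK classes, 1 point per library from combination to PBS 2, with exact 95% Poisson intervals that cover counting error only. Ctla4 was highest in Treg cells in all 4 libraries, Pdcd1 in non-naive CD8 cells, and Btla in NK cells averaged 0.99 CPM.

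PD-1 and its relatives differed in where they were high. Pdcd1 averaged 232 ± 24.2 CPM in non-naive CD8 cells, against 80.6 ± 8.95 in CD4 cells, 72.2 ± 12.1 in Treg cells, 13.9 ± 4.47 in Klra T cells, 12.2 ± 2.51 in NK cells and 5.15 ± 2.22 in naive-like CD8 cells. Within this order, CD4 and Treg cells were not separated (log2 difference 0.27 ± 0.14, edgeR adjusted p = 0.121), nor were Klra T and NK cells (0.22 ± 0.19, edgeR adjusted p = 0.375). Ctla4 averaged 1779 ± 122 CPM in Treg cells, 441 ± 117 in CD4 cells, 324 ± 72.1 in non-naive CD8 cells, 108 ± 23.6 in NK cells, 62.3 ± 23.0 in naive-like CD8 cells and 43.4 ± 13.8 in Klra T cells. Every step of the Ctla4 order passed the edgeR test, the smallest being CD4 over non-naive CD8 cells (0.41 ± 0.12, edgeR adjusted p = 0.00606), although libraries of neighbouring classes overlapped at that step and at both steps below NK cells. Btla averaged 74.8 ± 6.52 CPM in CD4 cells and 40.5 ± 7.97 in naive-like CD8 cells, which differed by 0.70 ± 0.11 on the log2 scale (edgeR adjusted p = 1.29e-06). It stood at 23.4 ± 4.82 CPM in Treg cells, 19.6 ± 2.30 in Klra T cells and 19.5 ± 0.96 in non-naive CD8 cells. The steps between these 3 classes did not pass (edgeR adjusted p = 0.434 and 0.800). The steps from naive-like CD8 to Treg cells (1.07 ± 0.13, edgeR adjusted p = 1.23e-09) and from non-naive CD8 to NK cells (4.26 ± 0.15, edgeR adjusted p = 1.42e-25) did. In NK cells Btla was at 0.99 ± 0.16 CPM, from 8 to 15 UMIs per library.

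The receptors of MHC class II and galectins were shared by Treg and non-naive CD8 cells. Lag3 averaged 138 ± 43.5 CPM in Treg cells and 137 ± 36.0 in non-naive CD8 cells (log2 difference -0.14 ± 0.14, of the opposite sign to the means, edgeR adjusted p = 0.409). Far lower came NK cells at 25.7 ± 6.55 CPM and CD4 cells at 25.1 ± 12.2, again not separated (edgeR adjusted p = 0.837). Klra T cells had 6.52 ± 3.13 and naive-like CD8 cells 3.28 ± 3.26 CPM of Lag3. Havcr2 averaged 181 ± 20.9 CPM in Treg cells and 171 ± 30.6 in non-naive CD8 cells (-0.04 ± 0.11, again opposite to the means, edgeR adjusted p = 0.757), 23.6 ± 9.26 in CD4 cells and 4.54 ± 0.60 in NK cells. Naive-like CD8 cells and Klra T cells had under 3 CPM of Havcr2 on average, with the naive-like cluster not separated from either neighbour.

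Among the remaining members, Tigit averaged 172 ± 15.1 CPM in Treg cells, a level 2.16 ± 0.09 log2 units above CD4 cells (edgeR adjusted p = 2.79e-22). CD4 cells (35.8 ± 5.23 CPM), non-naive CD8 cells (32.5 ± 3.62) and NK cells (32.3 ± 4.49) were not separated in Tigit (edgeR adjusted p = 0.382 and 0.918), and Klra T cells (20.7 ± 4.05) and naive-like CD8 cells (10.5 ± 2.69) followed. Cd160 averaged 108 ± 1.26 CPM in Klra T cells and 106 ± 7.06 in non-naive CD8 cells (edgeR adjusted p = 0.584), then 66.6 ± 3.99 in NK cells, 15.4 ± 3.64 in naive-like CD8 cells, 7.46 ± 4.86 in CD4 cells and 6.33 ± 1.97 in Treg cells. Entpd1 fell by a called step from each class to the next: 289 ± 20.4 CPM in Treg cells, 97.8 ± 8.20 in non-naive CD8 cells, 68.6 ± 5.76 in NK cells, 38.7 ± 6.54 in CD4 cells, 19.6 ± 4.82 in Klra T cells and 8.24 ± 1.65 in naive-like CD8 cells. Its smallest step, non-naive CD8 over NK cells, was 0.51 ± 0.08 on the log2 scale (edgeR adjusted p = 7.61e-07).

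Across the 8 orders, 26 of 40 neighbouring pairs passed the test, and in 4 of these the libraries overlapped. Differences between classes were common among all 12084 genes tested, so a call between classes says little about a receptor in particular. The test called 62.8% of all genes between Treg and non-naive CD8 cells, 58.8% between Treg and Klra T cells, 49.7% between Treg and CD4 cells and 59.5% between naive-like CD8 and Treg cells. For CD4 cells, 61.9% of genes were called against non-naive CD8 cells, 62.5% against NK cells, 41.0% against Klra T cells and 39.2% against naive-like CD8 cells. For NK cells, 56.7% were called against non-naive CD8 cells, 51.7% against Klra T cells and 59.2% against naive-like CD8 cells. Klra T cells had 63.2% of genes called against non-naive CD8 cells and 30.5% against naive-like CD8 cells.

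With all CD8 cells taken as 1 class, 3 contrasts summarised these differences, each fitted with the library as a block. In Treg over CD4 cells, 6 of 8 members were called, against 49.7% of all genes. Entpd1 was higher by 2.81 ± 0.10 on the log2 scale, Havcr2 by 2.82 ± 0.17, Lag3 by 2.34 ± 0.20, Tigit by 2.16 ± 0.09 and Ctla4 by 1.94 ± 0.12. Btla was lower, by a log2 difference of -1.77 ± 0.11. Pdcd1 (-0.27 ± 0.14) and Cd160 (-0.29 ± 0.30) did not pass. In CD8 over CD4 cells, all 8 members were called, against 55.2% of all genes. Cd160 was higher by 3.65 ± 0.21, Havcr2 by 2.64 ± 0.20, Lag3 by 2.25 ± 0.21, Pdcd1 by 1.32 ± 0.10 and Entpd1 by 1.17 ± 0.09, and Btla (-1.77 ± 0.10), Ctla4 (-0.60 ± 0.13) and Tigit (-0.26 ± 0.11, edgeR adjusted p = 0.0449) were lower. The Tigit call was kept in 4 of 13 alternatives (log2 difference -0.44 to -0.07, adjusted p 0.00184 to 0.634), and it was lost when the combination, the anti-PD-1 or the PBS 1 library was left out. In NK over CD8 cells, 7 members were called, against 49.4% of all genes, and all 7 were lower, from Havcr2 (-4.98 ± 0.20), Btla (-4.41 ± 0.16) and Pdcd1 (-4.01 ± 0.10) to Cd160 (-0.45 ± 0.11) and Entpd1 (-0.29 ± 0.06). The Entpd1 call was kept in 9 of 13 alternatives (-0.38 to -0.09, adjusted p 0.000143 to 0.489) and lost without cycling clusters, at a higher clustering resolution, with the members among the variable genes and with all shared barcodes removed. Tigit differed by 0.16 ± 0.08 (edgeR adjusted p = 0.125).

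Cells outside the T and NK classes gave the background and the other sources of these transcripts. CD45-negative cells had at most 10.3 CPM of any member, and that highest value was Ctla4 in the combination library. Havcr2 stood at 213, 163, 201 and 208 CPM in monocytes and macrophages of the combination, anti-PD-1, PBS 1 and PBS 2 libraries, close to its levels in Treg cells. Entpd1 was highest of all cells in neutrophils, at 2227, 2415, 2537 and 1874 CPM. Btla was highest in B cells, at 245, 276, 291 and 327 CPM. Lag3 in plasmacytoid dendritic cells stood at 69.0, 99.1, 48.8 and 41.0 CPM.

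The second question was what treatment did to these transcripts. In the combination library over PBS, Lag3 was higher in non-naive CD8, Treg, NK and CD4 cells, and Ctla4 was higher in CD8 cells, in both parts of that class, and in NK cells. In the anti-PD-1 library over PBS, Lag3 was higher in Treg, NK and non-naive CD8 cells. No other member was called in any class, Pdcd1 included, and nothing was called lower. DESeq2 on the same sums called 1 of the 8 combination results, Ctla4 in all CD8 cells (adjusted p = 0.0119), and of the 3 anti-PD-1 results it gave an adjusted p for Lag3 in Treg cells alone (0.826), leaving the other two untested. Each treated arm has 1 library, so p-values rest on the spread between PBS 1 and PBS 2. That spread may be technical, and it is taken to hold for the treated arms too. In non-naive CD8, naive-like CD8, CD4 and NK cells, edgeR used a spread shared over genes in place of the gene's own. A gene whose PBS libraries lie far apart can therefore have a small p there. In all CD8 cells and Treg cells the gene's own spread counted in part.

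**Figure D2:**
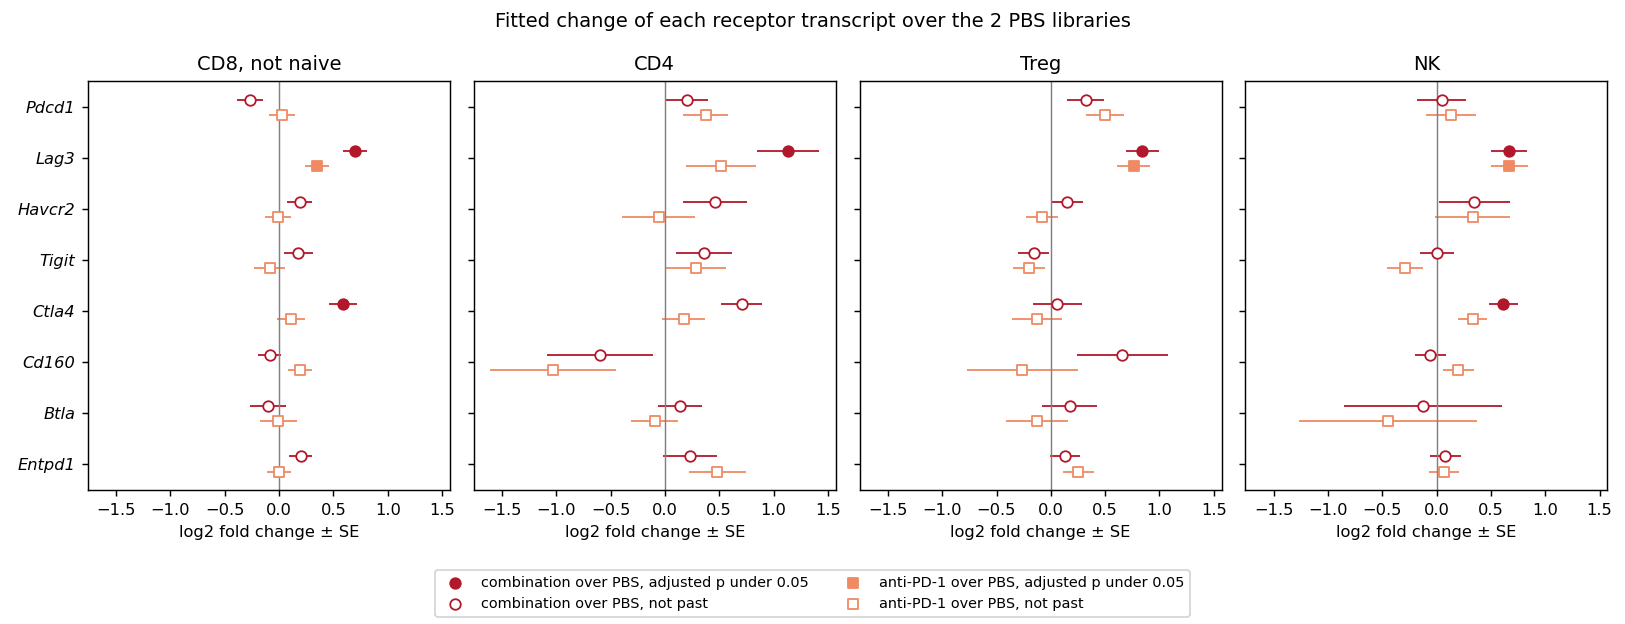
Fitted log2 fold change ± SE of each receptor transcript over the 2 PBS libraries in non-naive CD8, CD4, Treg and NK cells, for the combination library (circles) and the anti-PD-1 library (squares). Filled marks are past an adjusted p of 0.05. The filled marks are Lag3 in all 4 panels and Ctla4 in 2 of them.

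In non-naive CD8 cells, Lag3 stood at 183 CPM in the combination library, 136 in the anti-PD-1 library, 95.5 in PBS 1 and 134 in PBS 2. The combination library lay above both PBS libraries, and the anti-PD-1 library lay close to PBS 2. The fitted log2 fold change was 0.70 ± 0.11 for combination over PBS (edgeR adjusted p = 3.33e-08) and 0.35 ± 0.11 for anti-PD-1 over PBS (edgeR adjusted p = 0.0363). Both p-values use the spread shared over genes, so they do not measure the fold against the gap between the PBS levels of Lag3. With PBS 1 left out these values were 0.51 and 0.15, and with PBS 2 left out 0.93 and 0.58. The combination call held in 4 of 11 alternative settings (adjusted p 2.39e-08 to 0.464) and the anti-PD-1 call in 1 of 10 (0.0376 to 0.660). With the naive-like cluster included, Lag3 in CD8 cells had a similar fold for combination over PBS, 0.88 ± 0.27, that did not pass (edgeR adjusted p = 0.364), and 0.92 without cycling clusters (edgeR adjusted p = 5.81e-08).

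Treg cells had 182 CPM of Lag3 in the combination library and 167 in the anti-PD-1 library, against 89.2 in PBS 1 and 115 in PBS 2. Both treated libraries lay above both PBS libraries. The log2 fold change over PBS was 0.84 ± 0.15 for the combination (edgeR adjusted p = 0.00264) and 0.76 ± 0.15 for anti-PD-1 (edgeR adjusted p = 0.0199). The Treg class of the combination library also carried more RNA of CD8 T cells, with 51.6 CPM of Cd8a against 13.2 in the anti-PD-1 library, 9.95 in PBS 1 and 14.9 in PBS 2. All 7 markers of the NK list were detected there, with a sum of 318 CPM, against 36.5 in the anti-PD-1 library, 22.7 in PBS 1 and 83.2 in PBS 2, while Ncr1, the defining NK marker, stood at 0.26, 1.07, 0.36 and 1.49 CPM. Cd8a was concentrated in the cycling Treg cluster, at 170 CPM in the combination library. In the Treg clusters outside cycling and interferon genes, Cd8a stood at 14.4 CPM in the combination library and 6.17 in the anti-PD-1 library, against 1.08 in PBS 1 and 0.99 in PBS 2, so it was higher in the treated libraries there too. In the same clusters Lag3 stood at 198 CPM in the combination library, 173 in the anti-PD-1 library, 104 in PBS 1 and 131 in PBS 2. The part of this RNA in the Lag3 result was not tested. Without cycling clusters the fold changes were 0.77 (edgeR adjusted p = 0.0190) and 0.67 (edgeR adjusted p = 0.113). Over all alternatives the combination call held in 8 of 11 (adjusted p 4.42e-06 to 0.9999) and the anti-PD-1 call in 4 of 11 (0.000446 to 0.826).

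NK cells had 32.2 CPM of Lag3 in the combination library, 30.3 in the anti-PD-1 library, 21.3 in PBS 1 and 18.96 in PBS 2. The log2 fold change over PBS was 0.67 ± 0.17 in both treated libraries (edgeR adjusted p = 0.00680 for the combination and 0.0134 for anti-PD-1). T cell markers in the NK class did not all move one way. Cd3e stood at 29.7 and 22.9 CPM in the combination and anti-PD-1 libraries against 40.2 and 55.9 in PBS 1 and PBS 2, Cd8a at 7.15 and 5.11 against 4.475 and 7.003, and Foxp3 at 1.01 and 1.32 against 0.56 and 0.43. Their part in the Lag3 result was not tested. The calls held in 8 of 11 and 8 of 10 alternatives (adjusted p 0.00476 to 0.9997 and 0.00835 to 0.0982). CD4 cells had 39.9 CPM of Lag3 in the combination library, 24.6 in the anti-PD-1 library, 25.9 in PBS 1 and 10.1 in PBS 2. The PBS libraries lay far apart, and only the combination library was above both. Its log2 fold change was 1.14 ± 0.28 (edgeR adjusted p = 0.0277), 1.99 with PBS 1 left out and 0.59 with PBS 2 left out, and the call held in 5 of 11 alternatives (0.0255 to 1.0). Treg markers also stood higher in the CD4 class of the treated libraries. Foxp3 was at 6.65 and 13.3 CPM in the combination and anti-PD-1 libraries against 2.51 and 0.80 in PBS 1 and PBS 2, and the 4 Treg markers, all detected in every library, summed to 472 and 389 CPM against 315.5 and 312. Their part in the Lag3 and Ctla4 values of CD4 cells was not tested.

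Ctla4 in all CD8 cells stood at 407 CPM in the combination library, 267 in the anti-PD-1 library, 215 in PBS 1 and 280 in PBS 2. Its log2 fold change for combination over PBS was 0.74 ± 0.13 (edgeR adjusted p = 0.00909), a call kept in 10 of 11 alternatives (5.81e-08 to 0.0826). This class mixes in the naive-like cluster, which had less Ctla4. That cluster held 204 of 2431 CD8 cells in the combination library and 275 of 1983 in the anti-PD-1 library. It held 329 of 1252 in PBS 1 and 233 of 1147 in PBS 2. The part of this mix in the fold change of all CD8 cells was not tested. Non-naive CD8 cells had 427, 291, 261 and 317 CPM in the combination, anti-PD-1, PBS 1 and PBS 2 libraries (0.59 ± 0.13, edgeR adjusted p = 0.000559, kept in 7 of 11 alternatives, 0.000426 to 0.179). The naive-like cluster had 91.3, 52.6, 37.3 and 67.9 CPM in the same order (0.79 ± 0.21, edgeR adjusted p = 0.0393, kept in 3 of 11, 0.0355 to 0.9999). In these CD8 groups the combination library was above both PBS libraries, while the anti-PD-1 library lay between them.

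NK cells had 141 CPM of Ctla4 in the combination library, 109 in the anti-PD-1 library, 95.4 in PBS 1 and 87.8 in PBS 2. The log2 fold change was 0.61 ± 0.13 for combination over PBS (edgeR adjusted p = 0.000568, kept in 10 of 11 alternatives, 0.000401 to 0.436) and 0.33 ± 0.13 for anti-PD-1 over PBS (edgeR adjusted p = 0.218). CD4 cells had 615 CPM in the combination library, 404 in the anti-PD-1 library, 376 in PBS 1 and 371 in PBS 2, a fold change of 0.71 ± 0.19 that did not pass (edgeR adjusted p = 0.0559), in the class where Foxp3 was also higher in both treated libraries. Treg cells, the class with the most Ctla4, had 1880, 1601, 1818 and 1816 CPM, with 0.06 ± 0.23 for combination over PBS (edgeR adjusted p = 0.981). Ctla4 in CD45-negative cells, which should lack it, was also higher in the treated libraries, at 10.3 CPM in the combination library and 9.31 in the anti-PD-1 library against 6.04 in PBS 1 and 6.41 in PBS 2. Every level of Ctla4 in NK, CD4 and non-naive CD8 cells, PBS libraries included, was at least 87.8 CPM. Levels in naive-like CD8 cells were lower, from 37.3 CPM. The part of such background RNA in the Ctla4 results was not tested.

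Because libraries shared barcodes, each called result was also fitted with all copies kept and with all shared barcodes removed. Lag3 for combination over PBS in non-naive CD8 cells was 0.70 (edgeR adjusted p = 0.111) with all copies kept and 0.57 (0.00177) with all removed. In Treg cells it was 0.88 (0.0280) and 0.75 (0.0511), in NK cells 0.65 (0.0111) and 0.88 (0.0174), and in CD4 cells 0.98 (0.227) and 1.13 (0.899). Lag3 for anti-PD-1 over PBS was 0.34 (0.398) and 0.22 (0.479) in non-naive CD8 cells, 0.80 (0.110) and 0.64 (0.283) in Treg cells, and 0.68 (0.0111) and 0.88 (0.0177) in NK cells. Ctla4 for combination over PBS was 0.76 (0.00125) and 0.66 (6.37e-05) in all CD8 cells, 0.58 (0.0104) and 0.43 (0.122) in non-naive CD8 cells, 0.57 (0.688) and 0.63 (0.294) in naive-like CD8 cells, and 0.58 (0.00231) and 0.70 (0.0113) in NK cells. All of these fold changes kept their sign, and the calls that passed both ways were Lag3 in NK cells of both treated libraries and Ctla4 in NK cells and in all CD8 cells of the combination library.

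The members' calls were set against all genes. For combination over PBS, 2 of 8 members were called in non-naive CD8 cells (3.41% of all genes), 1 of 8 in all CD8 cells (2.21%), 1 of 7 in naive-like CD8 cells (0.384%), 1 of 8 in CD4 cells (0.295%), 1 of 8 in Treg cells (0.599%) and 2 of 8 in NK cells (2.15%). For anti-PD-1 over PBS, 1 of 8 was called in non-naive CD8 cells (5.99%), Treg cells (0.521%) and NK cells (1.67%). None was called by edgeR in all CD8 cells (3.13%), CD4 cells (0.314%) or naive-like CD8 cells (0.152%), where 1, 0 and 0 members had an unadjusted p under 0.05. The median log2 fold change of the members for combination over PBS was 0.18 in non-naive CD8 cells, 0.30 in CD4 cells, 0.16 in Treg cells and 0.06 in NK cells, with medians over all genes between -0.02 and -0.01. Havcr2 was not tested in naive-like CD8 cells, where it had 3 to 10 UMIs per library.

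Of the uncalled members, Pdcd1 in non-naive CD8 cells had 201 CPM in the combination library, 234 in the anti-PD-1 library, 231 in PBS 1 and 260 in PBS 2. The combination library was the lowest of the 4, and its log2 fold change over PBS was -0.27 ± 0.12 (edgeR adjusted p = 0.276). Pdcd1 in Treg cells stood at 77.6 and 85.5 CPM in the combination and anti-PD-1 libraries against 68.2 and 57.3 in PBS 1 and PBS 2, with fold changes of 0.32 ± 0.17 (edgeR adjusted p = 0.707) and 0.50 ± 0.18 (edgeR adjusted p = 0.233). Havcr2 in non-naive CD8 cells had 189 CPM in the combination library and 156 in the anti-PD-1 library, both inside the PBS range of 135 to 202. Entpd1 in all CD8 cells had 103 CPM in the combination library, 81.2 in the anti-PD-1 library, 79.9 in PBS 1 and 81.7 in PBS 2, a fold change of 0.37 ± 0.10 for combination over PBS (edgeR adjusted p = 0.0552). Tigit, Cd160 and Btla in non-naive CD8, Treg and NK cells differed from PBS by at most 0.66 in size on the log2 scale, with SE up to 0.82 where counts were low.

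**Figure D3:**
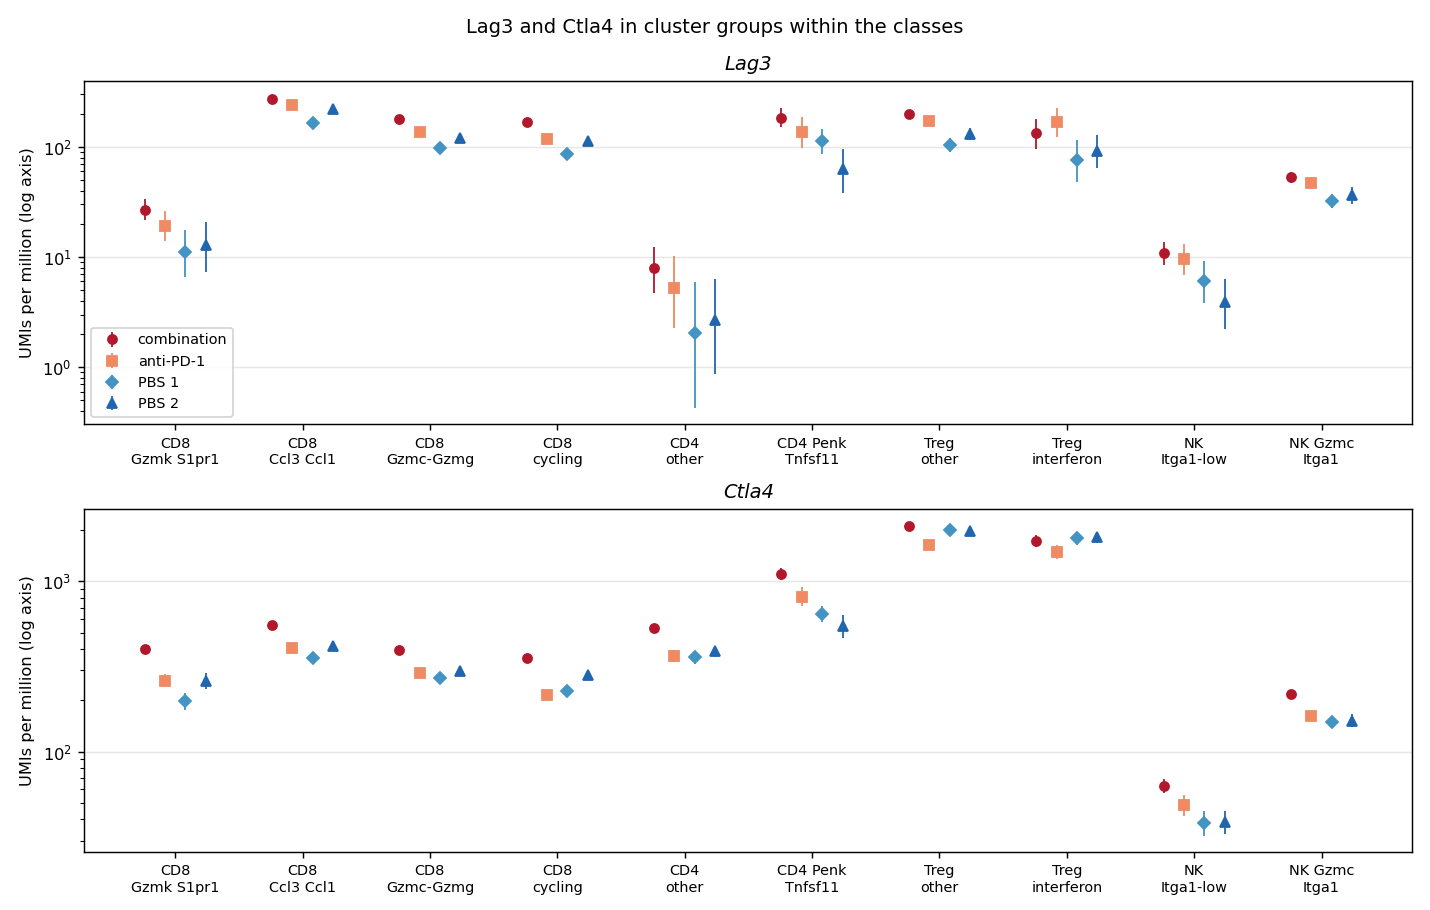
Lag3 (top) and Ctla4 (bottom) in 10 cluster groups within the classes (CPM, log axis), 1 point per library in the order combination, anti-PD-1, PBS 1, PBS 2, with exact 95% Poisson intervals that cover counting error only. The combination library lay above both PBS libraries for Lag3 in all 10 groups, and for Ctla4 in all but the Treg interferon group.

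The differences in Lag3 and Ctla4 were also seen inside the cluster groups of a class. Of 15 groups with at least 20 cells in every library, Lag3 in the combination library was above both PBS libraries in 15 and in the anti-PD-1 library in 13. Some of these groups rest on few counts, since Lag3 had 0 to 1 UMIs per library in naive-like CD4 cells and 1 to 11 in naive-like CD8 cells. Ctla4 in the combination library was above both in 13 groups and in the anti-PD-1 library in 6. For the other 6 members the combination library was above both PBS libraries in 3 to 8 groups and below both in 3 to 7. In CD8 cells with Ccl3 and Ccl1, Lag3 stood at 272 CPM in the combination library, 240 in the anti-PD-1 library, 166 in PBS 1 and 222 in PBS 2. In CD8 cells with granzymes C to G it stood at 180, 137, 98.1 and 120 CPM, and in CD8 cells with Gzmk and S1pr1 at 27.0, 19.3, 11.2 and 12.8 CPM. The interferon CD8 group was an exception for anti-PD-1, with 276 CPM in the combination library and 131 in the anti-PD-1 library against 165 in PBS 1 and 184 in PBS 2. No test was made within these groups, which divide the same 4 libraries. How many of all genes lay above both PBS libraries in as many groups was not counted. In the class tests, a different measure, 0.152% to 5.99% of genes were called over PBS.

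CD4 cells differed widely among their clusters. The Penk and Tnfsf11 cluster, 83, 59, 59 and 37 cells in the combination, anti-PD-1, PBS 1 and PBS 2 libraries, held 185, 137, 114 and 62.6 CPM of Lag3, whereas the remaining non-naive CD4 cells held 7.87, 5.23, 2.04 and 2.69 CPM from 3 to 19 UMIs. The same cluster had 1105 CPM of Ctla4 in the combination library, 812 in the anti-PD-1 library, 644 in PBS 1 and 545 in PBS 2. NK cells divided by Itga1, an integrin chain. NK clusters with Gzmc and Itga1 had 52.8, 47.1, 32.4 and 36.3 CPM of Lag3, and those low in Itga1 had 10.8, 9.69, 6.06 and 3.88 CPM. Entpd1 ran the opposite way, with 38.2, 35.8, 33.0 and 34.9 CPM in the Gzmc and Itga1 clusters against 120 to 129 CPM in those low in Itga1.

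The third question was what the TL1A antibody added, by comparing the combination library with the anti-PD-1 library. No member was called in any class by edgeR. This compares 2 libraries, not the conditions, and 1.03% of all genes were called in CD8 cells, 3.19% in non-naive CD8 cells, 0.304% in naive-like CD8 cells, 0.379% in CD4 cells, 0.408% in Treg cells and 1.31% in NK cells. Ctla4 in non-naive CD8 cells came closest, at 0.47 ± 0.15 (edgeR adjusted p = 0.0537), followed by Lag3 there at 0.35 ± 0.13 (edgeR adjusted p = 0.106). In Treg cells Lag3 differed by 0.08 ± 0.17 and in NK cells by -0.00 ± 0.19 between the 2 treated libraries. At an unadjusted p under 0.05, 4 of 8 members passed in non-naive CD8 cells, 3 in all CD8 cells, 2 of 7 in naive-like CD8 cells, 1 in CD4 cells and 0 in Treg and NK cells. DESeq2 called 0 of the 22 with an adjusted p, out of 47.

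Whether a treatment moved a receptor more in CD8 cells than in another class was tested by interaction, and no member was called by edgeR in 6 contrasts, with 3 of 48 tests at an unadjusted p under 0.05. For the combination, the share of all genes called was 0.00761% for CD8 minus CD4 cells, 0.0533% for CD8 minus Treg cells and 0.198% for CD8 minus NK cells. For anti-PD-1 it was 0.0% for CD8 minus CD4 cells, 0.00761% for CD8 minus Treg cells and 0.0533% for CD8 minus NK cells. The fold change of Ctla4 under the combination was 0.66 ± 0.16 larger in CD8 than in Treg cells (edgeR adjusted p = 0.307), and that of Lag3 differed by 0.03 ± 0.48 (edgeR adjusted p = 0.9993). That Ctla4 passed in CD8 cells and not in Treg cells is therefore not shown to be a difference between the classes.

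Single cells gave the same transcripts as shares of cells. With each cell thinned to 1000 UMIs, Lag3 was detected in 14.3% of non-naive CD8 cells in the combination library (95% exact binomial interval 12.9 to 15.9%), 11.7% in the anti-PD-1 library (10.2 to 13.3%), 9.44% in PBS 1 (7.63 to 11.5%) and 11.3% in PBS 2 (9.29 to 13.5%). Unthinned shares were 64.3%, 48.5%, 50.5% and 66.0%, at median depths of 9341, 6549, 10447 and 11972 UMIs. PBS 2, the deepest library in this class, had the highest unthinned share, and the anti-PD-1 library, the shallowest, the lowest. In Treg cells the thinned shares of Lag3 were 15.5%, 12.4%, 7.08% and 9.66% in the combination, anti-PD-1, PBS 1 and PBS 2 libraries, and the combination and PBS 1 intervals did not overlap (12.8 to 18.5% and 4.89 to 9.85%). Thinned CD45-negative cells, at median depths of 49070.5 to 78182 UMIs before thinning, gave 0.17%, 0.30%, 0 of 378 and 0 of 181 cells for Lag3, zeros that, read as 3 cells of the total, allow shares of up to 0.794% and 1.66% (upper 95% exact binomial bounds 0.971% and 2.02%). Intervals and limits cover counting error only. Thinning left out at most 21 cells of a class and library.

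Ctla4 was detected after thinning in 32.2% of non-naive CD8 cells in the combination library, 24.1% in the anti-PD-1 library, 21.3% in PBS 1 and 27.3% in PBS 2, and in 34.1%, 24.8%, 22.7% and 21.6% of CD4 cells. Among Treg cells it was found in 70.8%, 67.5%, 71.9% and 68.1%. Pdcd1 was detected in 17.8%, 19.2%, 17.3% and 19.2% of non-naive CD8 cells, a range of under 2 percentage points over the 4 libraries. The share of CD45-negative cells with Ctla4 was 0.26 to 1.04%.

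Counting the 8 receptors in each thinned cell showed that, of the classes, Treg cells held the most. The mean number detected was 1.55 in Treg cells of the combination library, 1.44 in the anti-PD-1 library, 1.45 in PBS 1 and 1.42 in PBS 2. In non-naive CD8 cells it was 1.02, 0.89, 0.82 and 0.98, in CD4 cells 0.61, 0.46, 0.46 and 0.43, and in NK cells 0.29, 0.26, 0.27 and 0.27. At least 3 receptors were detected in 15.8%, 13.5%, 13.7% and 12.4% of Treg cells and in 7.91%, 6.11%, 5.53% and 6.57% of non-naive CD8 cells. At this depth the combination library was the highest in each of these comparisons. In non-naive CD8 cells its mean of 1.02 exceeded that of PBS 2 by less than the PBS libraries differed from each other. Thinned to 2000 UMIs, the combination library still had the highest mean in each class, though in Treg cells only at 2.142 against 2.140 in the anti-PD-1 library. The share of Treg cells with at least 3 was then 34.95% in the combination library and 35.44% in the anti-PD-1 library. In non-naive CD8 cells that share was 24.85% in the combination library and 24.62% in PBS 2. Within that class, CD8 cells with Ccl3 and Ccl1 had means of 2.151, 2.182, 1.711 and 2.079 at this depth. Treg cells had 2.142, 2.140, 2.102 and 2.109 in the same order of libraries. The lead of Treg cells over this group was thus absent in the combination and anti-PD-1 libraries.

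**Figure D4:**
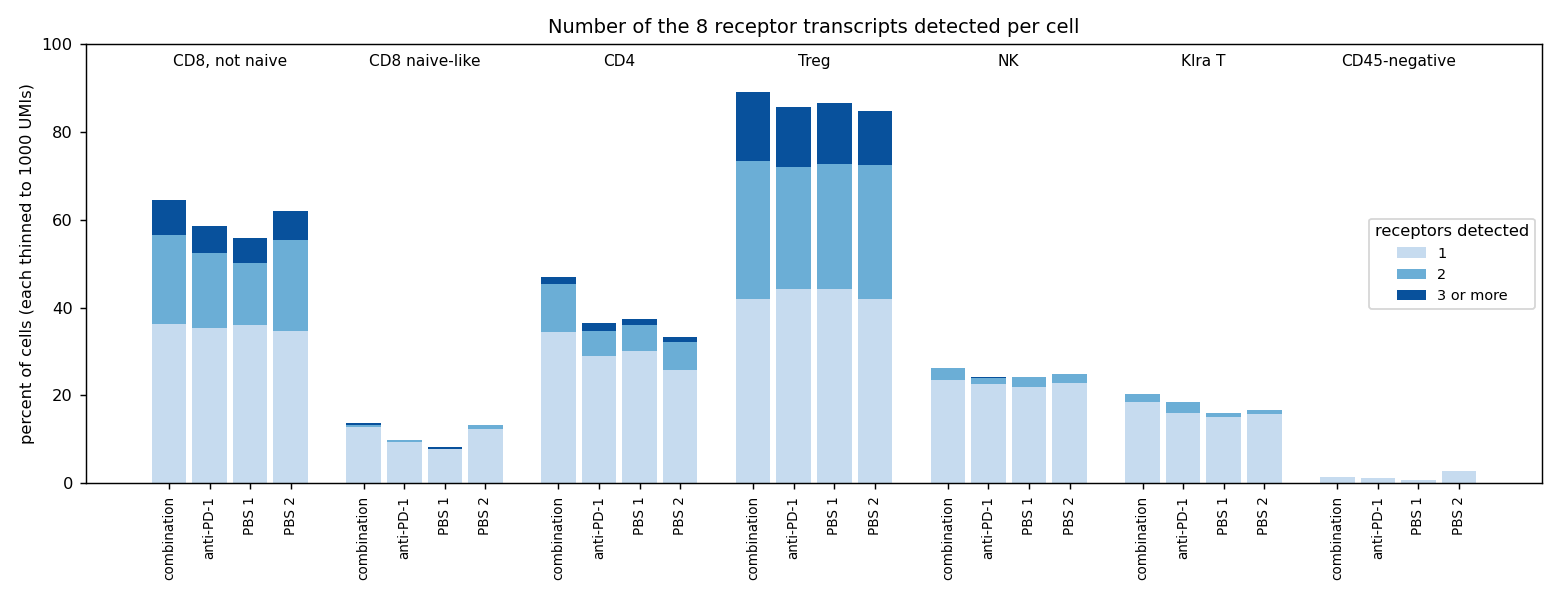
Percent of cells with 1, 2 or at least 3 of the 8 receptor transcripts detected, each cell thinned to 1000 UMIs, per class and library in the order combination, anti-PD-1, PBS 1, PBS 2. Treg cells with at least 1 receptor stood highest, and CD45-negative cells with at least 1 stayed at or under 2.76%.

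Receptors were detected together unevenly, and depth was held by comparing cells within 10 strata of UMIs per cell. An odds ratio above 1 means that cells with one transcript have the other more often than cells of like depth. In non-naive CD8 cells, 17 of 28 pairs were above 1 in all 4 libraries, 3 were below 1 in all 4, and 8 were mixed. How many pairs of other genes lay above 1 was not counted in any class. This class also mixes cluster groups of unlike levels. Pdcd1 averaged 70.7 CPM in the Gzmk and S1pr1 group and 291 in the group with granzymes C to G, and Lag3 17.6 and 134. The part of this mix in the odds ratios was not tested. Pdcd1 and Lag3 had the highest odds ratio in the anti-PD-1 and both PBS libraries and the second highest in the combination library, at 2.67 in the combination library, 3.34 in the anti-PD-1 library, 3.83 in PBS 1 and 5.51 in PBS 2. Both were found in 52.8%, 40.9%, 45.3% and 60.6% of non-naive CD8 cells, against 44.4%, 30.7%, 34.7% and 50.8% expected from their separate shares. These shares are of unthinned cells without strata, so part of their excess can come from depth. With cells thinned to 2000 UMIs, the observed share was 1.15 to 1.37 times the expected one over the libraries. For Lag3 and Havcr2 that ratio was 1.25 to 1.41, so the lead of Pdcd1 and Lag3 holds for the odds ratios only. Havcr2 and Entpd1, highest in the combination library, had 2.82, 1.95, 2.96 and 2.73, and Pdcd1 and Havcr2 had 2.22, 2.35, 2.51 and 2.54.

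The pairs below 1 in every library all held Btla or Entpd1. Btla and Entpd1 had odds ratios of 0.37 in the combination library, 0.42 in the anti-PD-1 library, 0.41 in PBS 1 and 0.58 in PBS 2. Cd160 and Entpd1 had 0.69, 0.63, 0.49 and 0.70, and Havcr2 and Btla had 0.55, 0.87, 0.56 and 0.62. For Btla and Entpd1 the cluster groups ran the same way, with Btla at 32.9, 32.6, 47.4 and 34.5 CPM in CD8 cells with Ccl3 and Ccl1 but 8.25, 9.54, 6.56 and 5.96 CPM in those with granzymes C to G. Entpd1 was at 70.8, 58.5, 43.1 and 47.7 CPM in the Ccl3 and Ccl1 group and 169, 129, 148 and 149 CPM in the granzyme group. For Havcr2 and Btla they did not, since Havcr2 too averaged more in the Ccl3 and Ccl1 group, at 238 CPM against 186 in the granzyme group. With cells thinned to 2000 UMIs in place of the strata, 12 pairs stayed above 1 in all libraries by both measures and 1 stayed below, Btla and Entpd1, with 1 to 10 thinned cells holding both per library.

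Treg cells showed less pairing. Of 15 pairs with at least 30 cells holding both in every library, 4 were above 1 in all 4 libraries, 2 were below and 9 were mixed. Pdcd1 and Tigit had 2.28, 2.01, 1.53 and 1.24 in the combination, anti-PD-1, PBS 1 and PBS 2 libraries. Lag3 and Ctla4 were the transcripts called over PBS in some classes, though Ctla4 was not called in Treg cells. This pair was below 1 in Treg cells, at 0.52, 0.77, 0.90 and 0.39, and above 1 in non-naive CD8 cells, at 2.01, 1.83, 1.56 and 2.70. The Treg values rest on few cells without Ctla4, since 89.2% to 93.4% of Treg cells had a Ctla4 UMI, and no Treg pair was on the same side of 1 in all libraries by both measures. In CD4 cells all 4 pairs with enough cells were above 1, 3 of them by both measures, and each held Ctla4. Cells are not replicates, and no test was made.

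**Figure D5:**
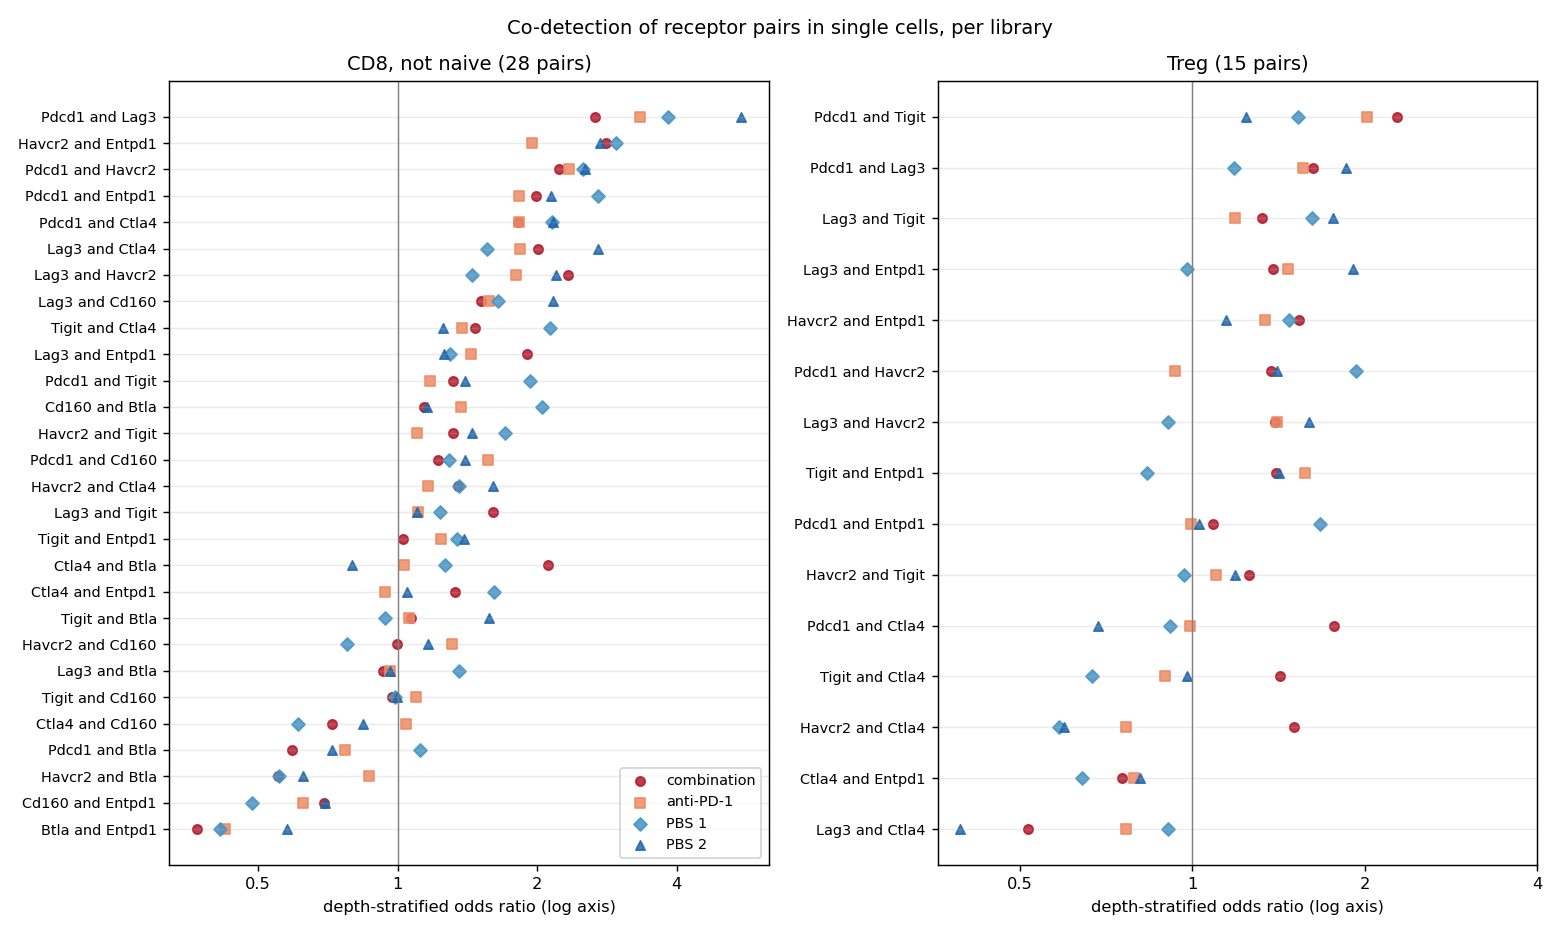
Odds ratio for detecting both transcripts of a pair in the same cell (log axis, cells compared within 10 strata of UMIs per cell), 1 point per library, for 28 pairs in non-naive CD8 cells and 15 pairs in Treg cells. In non-naive CD8 cells Pdcd1 and Lag3 range over 2.67 to 5.51, and Btla and Entpd1 lie at 0.37 to 0.58.

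Profiles across 58 points, each a cluster group of at least 50 cells in 1 library, gave the genes most like each member, as Pearson r of log2(CPM + 1). The points share libraries and cell types, so r is a description. Pdcd1 was most like Cxcr6, a chemokine receptor of tissue T cells (r = 0.89), Nrp1 (0.88) and Bcl2a1b (0.88). Lag3 was most like Ciapin1 (0.91), Rbpj, the DNA-binding factor of Notch signalling (0.90), and Ptms (0.89). Ctla4 was most like Hif1a, a transcription factor of the response to low oxygen (0.94), the costimulatory receptor Icos (0.93) and Tnfrsf4, which encodes OX40 (0.92). Cd160 followed the NK receptor genes Klrc2 (0.93), Klrc1 (0.93) and Klrd1 (0.90). Havcr2 followed Csf1 (0.90), Sv2c (0.89) and Dusp4 (0.89), and Tigit followed Fbxw11 (0.92), Mapkapk2 (0.91) and Traf3 (0.90). Btla was most like Gm8369 (0.91), Bcl11b (0.91), a factor of T cell identity, and St6gal1 (0.90), and Entpd1 was most like Glipr1 (0.89), Adap1 (0.87) and Tsc22d4 (0.85). Among the members themselves, r was highest for Lag3 and Havcr2 (0.84), Tigit and Entpd1 (0.84) and Pdcd1 and Havcr2 (0.83), and lowest for Ctla4 and Cd160 (-0.43).

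The partners of these receptors were followed in 6 lists. Among 16 ligands, 13 were tested in non-naive CD8 cells, where 1 was called higher for combination over PBS and 1 higher and 2 lower for anti-PD-1 over PBS (list medians 0.17 and -0.07, all-gene medians -0.01 and -0.01). The called ligand in both was Lgals3, which encodes galectin-3, a ligand of LAG-3, at 264 CPM in the combination library and 326 in the anti-PD-1 library against 164 in PBS 1 and 147 in PBS 2. Its log2 fold change was 0.79 ± 0.12 for the combination (edgeR adjusted p = 9.07e-09) and 1.17 ± 0.12 for anti-PD-1 (edgeR adjusted p = 9.53e-20). In Treg cells Lgals3 was higher under the combination by 1.01 ± 0.16 (edgeR adjusted p = 0.000623), the only one of 11 tested ligands called. The ligands called lower under anti-PD-1 were the MHC class II genes H2-Eb1 (-0.94 ± 0.28) and H2-Aa (-0.86 ± 0.27), at 4.58 and 4.73 CPM in the anti-PD-1 library against 11.96 and 10.57 CPM in PBS 1 and 6.87 and 7.79 CPM in PBS 2. In this class the 8 dendritic cell markers summed to 42.3 CPM in the anti-PD-1 library, 83.3 in PBS 1 and 44.8 in PBS 2. The 10 monocyte and macrophage markers went the other way, at 693 CPM against 529 and 521. They summed to 715 CPM in the combination library, so they were higher in both treated libraries, as Lgals3 was. In Treg cells they summed to 743 CPM in the combination library, 715 in the anti-PD-1 library, 536 in PBS 1 and 670 in PBS 2. The part of RNA from such cells in the MHC class II and Lgals3 results was not tested.

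Of 14 other inhibitory receptors, all tested in non-naive CD8 cells, 2 were called higher for combination over PBS, and 2 higher and 1 lower for anti-PD-1 over PBS (list medians -0.01 and -0.02). Klrd1, which encodes CD94, the partner chain of NKG2A, reached 755 CPM in the combination library, against 431 in the anti-PD-1 library, 483 in PBS 1 and 514 in PBS 2 (combination over PBS 0.62 ± 0.15, edgeR adjusted p = 0.00284). Il10ra, a chain of the receptor for IL-10, was higher by 0.43 ± 0.11 under the combination and by 0.40 ± 0.11 under anti-PD-1. Vsir, which encodes VISTA, was higher by 0.50 ± 0.12 and Lilrb4a lower, with -0.67 ± 0.17, under anti-PD-1. In Treg cells Klrd1 stood at 94.8 CPM in the combination library, 14.7 in the anti-PD-1 library, 15.3 in PBS 1 and 13.1 in PBS 2, and Klrc1, which encodes NKG2A, at 40.1, 18.6, 8.17 and 16.0 CPM. Cd8a and the NK list were also highest in the Treg class of the combination library, and their part in this result was not tested. In CD4 cells Klrd1 was higher under the combination by 1.28 ± 0.20 (edgeR adjusted p = 6.66e-07). There the 2 CD8 markers summed to 50.4 CPM in the combination library against 41.8 in PBS 1 and 28.2 in PBS 2, and the 7 NK markers to 134 CPM against 81.9 and 63.6, and their part was likewise not tested.

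Among 12 costimulatory counterparts in non-naive CD8 cells, 1 was called higher for combination over PBS and 4 for anti-PD-1 over PBS (list medians 0.18 and 0.25). Cd27 was called in both, at 93.9 CPM in the combination library, 79.7 in the anti-PD-1 library, 65.6 in PBS 1 and 70.4 in PBS 2. Tnfrsf18, which encodes GITR (0.47 ± 0.11), Tnfrsf4 (0.47 ± 0.11) and Cd2 (0.45 ± 0.12) were called under anti-PD-1. Of 19 phosphatases and adaptors found among 20 listed, 1 was called higher for combination over PBS and 0 by edgeR for anti-PD-1 over PBS in non-naive CD8 cells, where DESeq2 called 0 of the 4 to which it gave an adjusted p and 3 had an unadjusted p under 0.05 (list medians 0.10 and -0.03), whereas 3 were called for combination over anti-PD-1. Sh2d1a, which encodes the adaptor SAP, stood at 86.3 CPM in the combination library, 49.4 in the anti-PD-1 library, 68.8 in PBS 1 and 60.8 in PBS 2. The cytokine signalling inhibitors Socs1 (0.84 ± 0.16) and Socs3 (0.59 ± 0.17) were the others called for combination over anti-PD-1.

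The list of transcription factors of exhaustion also holds Tcf7 and Lef1, markers of naive-like T cells, so its counts have no single direction. Of its 22 genes, 3 were called higher and 1 lower for combination over PBS in non-naive CD8 cells. For anti-PD-1 over PBS in the same cells, 1 was called higher and 2 lower (list medians 0.02 and -0.01). Prdm1, which encodes Blimp-1, stood at 45.4 CPM in the combination library, 36.8 in the anti-PD-1 library, 23.8 in PBS 1 and 33.1 in PBS 2, higher by 0.70 ± 0.13 and 0.47 ± 0.14. Nr4a3, induced by antigen receptor signalling, stood at 190.5 and 190.1 CPM in the combination and anti-PD-1 libraries against 288.5 in PBS 1 and 268.2 in PBS 2, with fold changes of -0.53 ± 0.12 and -0.45 ± 0.12. Zeb2 (0.48 ± 0.12) and Lef1 (0.35 ± 0.11), the latter a marker used here for naive-like cells, were also called higher under the combination. Tox, a factor of exhausted T cells, was in the list and not among the genes called. None of the 12 genes of the adenosine pathway, in which CD39 acts, was called by edgeR in 156 tests over all classes and comparisons, of which 17 had an unadjusted p under 0.05, or by DESeq2 in the 86 with an adjusted p. Over the 6 lists in non-naive CD8 cells, edgeR called 9 genes for combination over PBS and 13 for anti-PD-1 over PBS, in background shares of 3.41% and 5.99%, and DESeq2 called 2 of 86 and 1 of 21 with an adjusted p.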

How the data were processed

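Tumour cells of 4 libraries were profiled by droplet single-cell RNA sequencing. The deposited matrices hold UMI counts per gene and barcode, made by the authors with Cell Ranger 7.1.0 per the file headers, whereas version 3.0.2 and the mm10 build are named per the submitters' processing notes. A barcode was kept if it had 200 genes or more and less than 15% of its UMIs from mitochondrial genes. The automatic doublet threshold of Scrublet (scanpy 1.11.5) marked 3.17% of the combination library but at most 0.0304% of the others and was not used, and the highest scores were removed at 0.8% per 1000 barcodes (975, 1364, 354 and 324 barcodes). Cells were clustered (Leiden, resolution 1.5) without the 8 receptors among the variable genes, and classes followed marker thresholds set after seeing the data, so class sizes depend on them.

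The counts of all cells of a class in a library were added up, and edgeR 4.0.16 was run on these sums (quasi-likelihood, TMM, filterByExpr at 10 counts, Benjamini-Hochberg over all genes of the class, threshold 0.05), with 1 residual degree of freedom for treatment, and with the library as a block between classes. DESeq2 1.42.0, other normalisation, filters, clustering, doublet and barcode handling were alternatives. In a test on simulated data for combination over PBS in Treg cells (11526 genes), 60% of genes changed by 1 on the log2 scale were called. Odds ratios were Mantel-Haenszel over 10 depth strata. The members and lists were chosen with earlier results of these data known. The genes named are the 8 members, the 3 genes of most similar profile to each (mean CPM of at least 20), and, from each list, at most the 4 called genes of largest change.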

Additional observations from a re-analysis of the deposited data

Results flagged for a closer look

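Outside the T and NK classes that were tested, 14 levels of a member in a treated library were at least 1.5 times both PBS libraries with at least 30 UMIs, and none was tested. How many of all genes met the same rule in these cells was not counted, so the number says nothing about the receptors in particular. T cells with Klra genes had 63.4 CPM of Ctla4 and 9.97 CPM of Lag3 in the combination library, against 33.4 and 35.3 CPM of Ctla4 and 3.34 and 4.48 CPM of Lag3 in PBS 1 and PBS 2. The same cells had 19.4 CPM of Pdcd1 in the anti-PD-1 library, against 9.34 and 11.5 CPM in PBS 1 and PBS 2. Gamma-delta T cells had 342 CPM of Ctla4 in the combination library, against 178 and 131 CPM.

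Monocytes and macrophages of the combination library had 20.6 CPM of Lag3, 17.4 CPM of Pdcd1 and 8.42 CPM of Cd160. In PBS 1 and PBS 2 these cells had 6.92 and 8.52 CPM of Lag3, 8.30 and 10.1 CPM of Pdcd1, and 4.30 and 4.54 CPM of Cd160. The 2 CD8 T cell markers summed to 72.0 CPM in these cells of the combination library, 17.9 in the anti-PD-1 library, 28.3 in PBS 1 and 34.7 in PBS 2, and their part was not tested. Neutrophils of the anti-PD-1 library had 112 CPM of Ctla4 from 33 UMIs, against 20.6 and 15.2 CPM. Plasmacytoid dendritic cells of the combination library had 158 CPM of Btla from 39 UMIs, against 92.2 and 102.5 CPM.

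CD45-negative cells had 10.3 CPM of Ctla4 in the combination library, against 6.04 and 6.41 CPM, and 3.10 CPM of Entpd1 in the anti-PD-1 library, against 1.44 and 1.97 CPM. Clusters with markers of 2 lineages had 117 CPM of Lag3 in the combination library, against 60.5 and 70.6 CPM. Clusters of low UMI counts had 99.8 CPM of Lag3 in the combination library, against 45.8 and 52.2 CPM, and 67.0 CPM of Cd160 in the anti-PD-1 library, against 28.2 and 28.1 CPM.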

How the results depend on the processing

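Of 47 tests of a member in a class, edgeR called 8 for combination over PBS, 3 for anti-PD-1 over PBS and 0 for combination over anti-PD-1. The 8 became 1 with DESeq2 (45 tests with an adjusted p), 4 at a higher clustering resolution, 5 with doublets kept and 5 with the members among the variable genes. DESeq2 called 0 for anti-PD-1 over PBS, where it gave an adjusted p in 32 tests and for 1 of the 3 calls. The 3 became 1 with low-UMI clusters kept, at a higher resolution, with doublets kept, with shared barcodes kept and without cycling clusters. The 0 became 2 with no low-count filter and 1 with DESeq2 size factors, with sums thinned to equal totals, with low-UMI clusters kept, with all shared barcodes removed and without cycling clusters. With shared barcodes kept, or all removed, the combination calls were 6 and 6. The alternatives on shared barcodes and cycling clusters were chosen after seeing the data. The cause of these changes was not tested. Between classes, calls ranged over 6 to 7 for Treg over CD4 cells, 7 to 8 for CD8 over CD4 cells and 6 to 8 for NK over CD8 cells, and without the replicate block they were 6, 7 and 7. For the treatment comparisons, no paired analysis was possible because only PBS has 2 libraries. No called value reversed in the alternatives run. Depth limits the naive-like CD8 cluster, where Lag3 had 1 to 11 UMIs per library, and the shallow anti-PD-1 library. Leaving out PBS 1 or PBS 2 leaves values with no test.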
